A study of Mus musculus with 12 samples.

Results

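The 9 genes described here encode the enzymes that make serine (Phgdh, Psat1 and Psph) and those that pass its one-carbon unit through the mitochondrial (Shmt2, Mthfd2, Mthfd1l and Aldh1l2) and cytosolic (Shmt1 and Mthfd1) folate cycles. They were taken as a list of gene names and matched to the Ensembl identifiers of the deposited count table. All 9 of the 9 were among its 46603 genes, and all 9 passed the filter on low counts that left 13167 genes for testing. No measured value was used to choose them, but the list was drawn up with earlier results of these data known.

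Serine is made from the glycolytic intermediate 3-phosphoglycerate by PHGDH, PSAT1 and PSPH acting in that order. SHMT2 in mitochondria and SHMT1 in the cytosol split serine into glycine and a one-carbon unit carried on tetrahydrofolate, which is used to make purines and thymidylate. In mitochondria, MTHFD2 and MTHFD1L carry that unit on to formate, and ALDH1L2 can oxidize it to carbon dioxide with the formation of NADPH, whereas the cytosolic enzyme MTHFD1 takes formate back into the folate pool. T cells raise this pathway when they are activated and start to divide, and several of its genes are also known targets of ATF4, the transcription factor of the integrated stress response.

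RNA was measured in mouse CD8 T cells that carry the OT-I T cell receptor and express Cas9. There were 6 groups of 2 libraries. Activated Tmed10 KO cells given vehicle (KO), activated control-guide cells given AGN192403 (AGN192403), and activated control-guide cells given vehicle (control) were on anti-CD3 at 2.5 µg/mL for 24 h, and the same 3 kinds of cell were left at rest. AGN192403 was given at 100 µM, and the vehicle was water. All cells had been activated once before on anti-CD3 and anti-CD28, transduced with a retroviral guide and selected with puromycin, so resting cells were not naive, and the KO was a bulk population and not a clone. AGN192403 was given only to control-guide cells, so the KO and AGN192403 comparisons share their control libraries.

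Library totals ranged from 9089350 to 16481840 counts. Tmed10 mRNA, from the gene that the KO guide targets, was at 55.9 to 65.1 CPM (read counts scaled to a common library size) in the 4 KO libraries, against 116 to 144 CPM in the other 8. CD8 T cell markers summed to 2451 to 3964 CPM in every library, and 5 B cell markers and 8 myeloid markers to at most 8.08 and 5.25 CPM. The nuclear RNA Kcnq1ot1 stood at 33.3 to 42.2 CPM in 3 libraries (resting control 1, activated control 1 and activated AGN192403 1) and at 3.40 to 16.03 CPM in the other 9, with the lowest values in activated KO cells. Results are therefore also given without those 3 libraries where that changed a call. Leaving them out did not level Kcnq1ot1 between KO and control. The control libraries that remain were at 11.5 CPM (resting) and 16.03 CPM (activated), against 3.40 to 5.13 CPM in the 4 KO libraries. Malat1 RNA was also lowest in KO cells, at 400 to 751 CPM in the 4 KO libraries and 752 to 2594 CPM in the other 8. The part of these differences in the KO results was not tested.

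The genes lie on 7 chromosomes (GRCm38, GENCODE M21). Phgdh is at chr3:98313170-98339990, Psat1 at chr19:15904678-15947337 and Psph at chr5:129765558-129787449, all on the minus strand. Of the mitochondrial enzymes, Shmt2 (chr10:127517123-127522444), Mthfd2 (chr6:83305691-83325908) and Aldh1l2 (chr10:83487450-83534140) are on the minus strand and Mthfd1l (chr10:3973118-4167081) is on the plus strand. Shmt1 is at chr11:60788104-60811718 on the minus strand and Mthfd1 at chr12:76255298-76319803 on the plus strand. All are protein-coding. Exons of Psph, Shmt2, Aldh1l2, Shmt1 and Mthfd1 overlap exons of a gene on the other strand. As the strand setting of the count is not given in the sources used here, reads in the shared stretches may belong to either gene, and levels of these 5 genes are uncertain to that extent. For Shmt2 the other gene is Ndufa4l2, which had only 0 to 2 counts in each library.

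To show what the starts of these genes share, RefSeq promoter windows (GRCm38.p6, 250 bases before to 50 after each start) were searched on both strands for 4 short motifs. Windows were found for 8 of the 9 genes, all but Aldh1l2, whose start was therefore not searched. The letters CCAAT were present in the windows of 6 of the 8 (Phgdh, Psph, Mthfd2, Shmt1, Mthfd1 and Psat1), against 37.4% of all 32851 windows. TGACGT, the core of the cAMP response element, was in 2 of the 8 (Psph and Mthfd1l), against 7.51% of all windows. The C/EBP-ATF composite motif TGATGNAA was in 0 of the 8, against 3.97%, and the E-box CACGTG in 0 of the 8, against 7.15%. These are matches of letters and not measured sites. The last 100 bases free of annotated exons before a RefSeq start are printed for Psat1, Mthfd2 and Shmt2, whose mRNAs rose with both KO and AGN192403, and for Shmt1, whose mRNA fell in activated cells, with CCAAT or its reverse complement ATTGG in capitals. They come from chr19:15925060-15925159 (Psat1), chr6:83317607-83317706 (Mthfd2), chr10:127522445-127522544 (Shmt2) and chr11:60811266-60811365 (Shmt1), all on the minus strand and written 5′ to 3′ in the direction of transcription. The stretch of Shmt2 lies just before the annotated gene, whereas those of Psat1, Mthfd2 and Shmt1 lie inside the span of the gene as GENCODE gives it, before a start downstream of its first base. The Mthfd2 stretch runs from -102 to -3 from the start and the others end at -1.
Psat1: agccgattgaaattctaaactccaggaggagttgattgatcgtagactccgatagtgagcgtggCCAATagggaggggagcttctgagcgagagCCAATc
Mthfd2: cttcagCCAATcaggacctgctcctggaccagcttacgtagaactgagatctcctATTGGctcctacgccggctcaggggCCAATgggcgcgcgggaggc
Shmt2: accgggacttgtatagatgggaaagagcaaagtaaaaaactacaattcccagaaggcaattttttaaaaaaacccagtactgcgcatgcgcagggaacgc
Shmt1: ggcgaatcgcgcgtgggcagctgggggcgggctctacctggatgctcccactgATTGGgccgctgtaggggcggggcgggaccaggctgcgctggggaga
Within these stretches the motif occurred 2 times in Psat1, 3 times in Mthfd2, 0 times in Shmt2 and 1 time in Shmt1. The motif was therefore present before 2 genes that rose and 1 that fell, and was absent before Shmt2.

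The levels of these mRNAs were compared only with each other, and Aldh1l2 was the lowest of the 9 in every group. Compared per kilobase of exon, Shmt2 was the highest of the 9 in every group, at 151 ± 0.433 CPM per kilobase in activated KO cells, 156 ± 0.188 in activated AGN192403 cells and 131 ± 2.96 in activated control cells (SD, n = 2 each). In activated control cells it was followed by Psat1 (89.8 ± 0.465 CPM per kilobase), Mthfd2 (79.0 ± 1.87), Phgdh (66.7 ± 0.474), Mthfd1 (54.1 ± 0.631), Mthfd1l (46.7 ± 0.448), Shmt1 (28.6 ± 0.191), Psph (13.1 ± 0.462) and Aldh1l2 (0.490 ± 0.00246). In resting control cells the order was the same except for Mthfd1l (36.6 ± 0.115 CPM per kilobase), which stood above Mthfd1 (20.8 ± 1.07). There Mthfd1l and Phgdh (35.1 ± 2.46) did not differ beyond their spread. In activated AGN192403 cells Psph (23.2 ± 2.07 CPM per kilobase) stood above Shmt1 (16.6 ± 0.827), the reverse of their order in activated control cells.

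**Figure D1:**
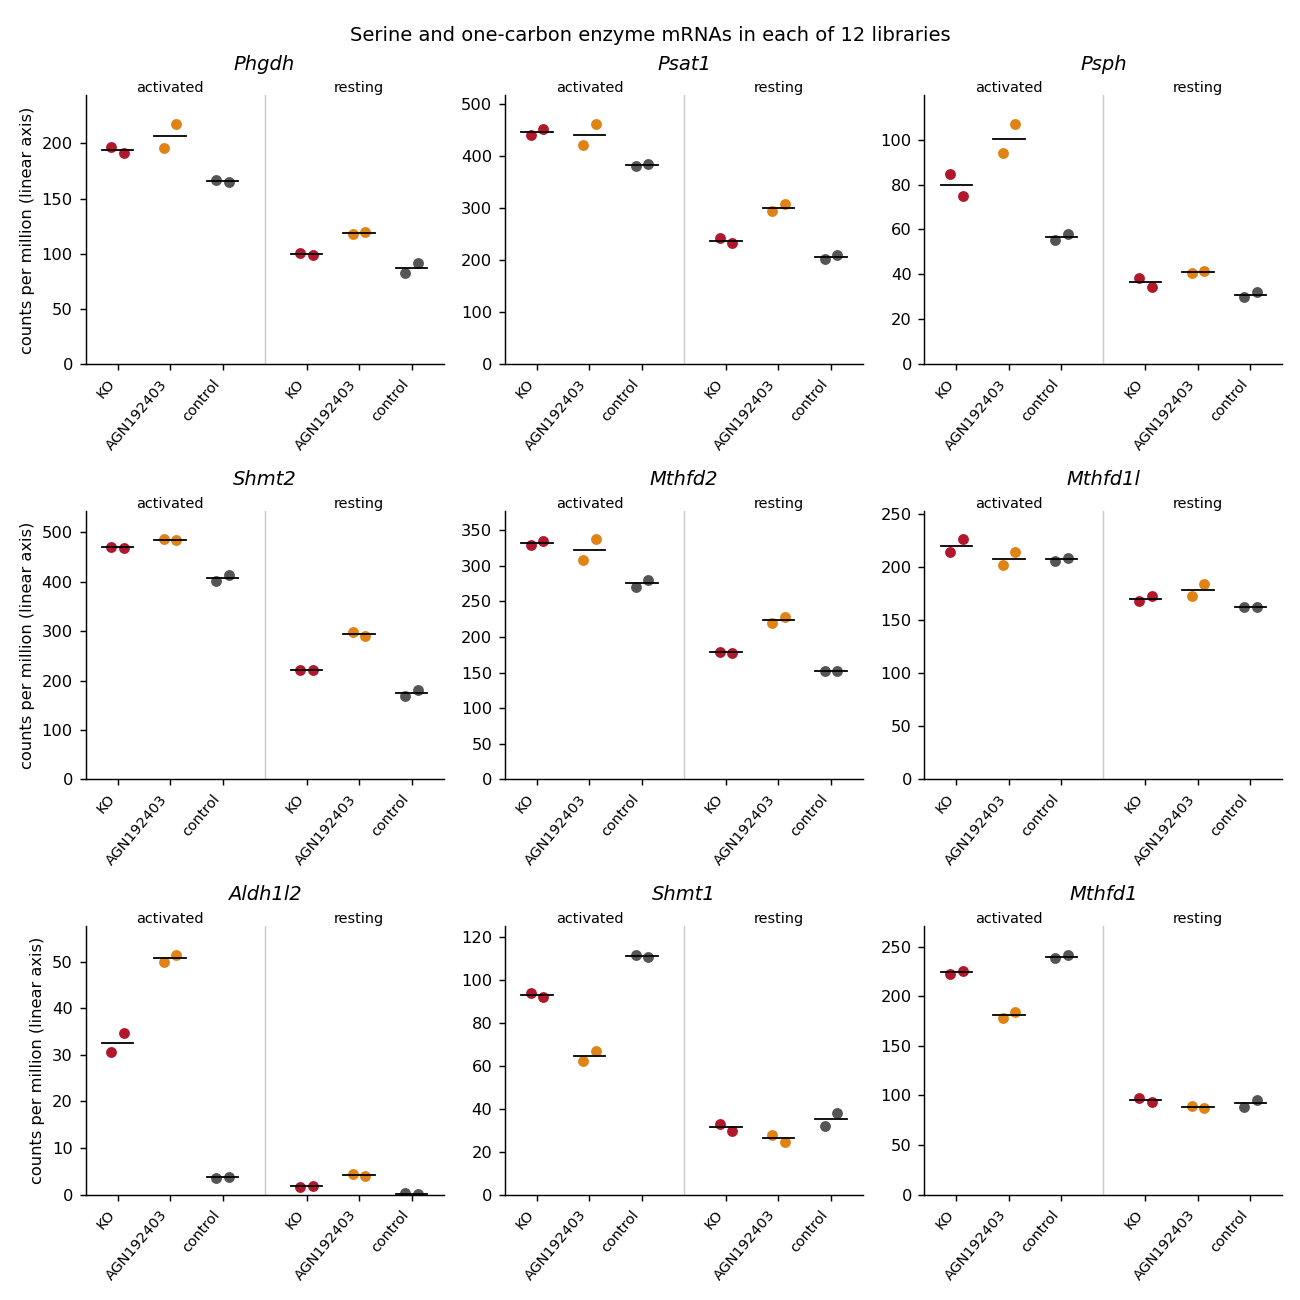
Level of each of the 9 mRNAs in CPM (linear axis from 0) in each of the 12 libraries, with points for libraries, bars for the mean of 2, and groups ordered KO, AGN192403 and control within activated and resting cells. Aldh1l2 was at 30.5 and 34.7 CPM in activated KO cells and 50.0 and 51.5 CPM in activated AGN192403 cells, against 3.67 and 3.69 CPM in activated control cells, while Shmt1 and Mthfd1 were lowest with AGN192403 among activated cells.

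The first question was what loss of Tmed10, and AGN192403, the small molecule used as a TMED inhibitor, did to these enzymes in activated cells. In activated KO cells 6 of the 9 rose and 1 fell, where 19.6% of all tested genes were called (10.8% higher and 8.78% lower). With AGN192403, 6 rose and 2 fell, where 34.7% of all tested genes were called (16.4% higher and 18.3% lower). The median log2 fold change over the 9 was 0.22 for KO and 0.23 for AGN192403, against 0.02 and -0.01 over all tested genes. In resting KO cells 5 of the 9 rose and 0 fell, where 7.44% of all tested genes were called (2.81% higher and 4.63% lower). That 0 fell was edgeR's count, and 0 were lower at an unadjusted p under 0.05 and 0 by DESeq2. The 5 became 3 without resting control library 1 and 3 without resting KO library 1. In resting cells AGN192403 raised 7 of the 9 and lowered 1, where 25.4% of all tested genes were called (11.6% higher and 13.7% lower). The medians at rest were 0.21 for KO and 0.44 for AGN192403, against 0.0027 and -0.0063 over all tested genes. Without the 3 libraries high in Kcnq1ot1, 7 of the 9 were called in activated and 4 in resting KO cells, and 8 and 8 with AGN192403. Other marker lists moved with the perturbations in activated cells. The 3 CD4 T cell markers summed to a mean of 47.9 CPM in KO cells and 65.6 CPM with AGN192403, against 34.9 CPM in control cells. Of these, Cd4 itself was at 1.05 and 1.29 CPM in activated KO cells and 0.378 and 0.662 CPM with AGN192403. In activated control cells Cd4 was at 0.750 and 0.755 CPM. The 4 NK markers, 1 of them above the filter, summed to 104 CPM and 113 CPM, against 82.2 CPM. The part of these markers in these results was not tested. In bulk RNA, fewer cells with an mRNA and less of it per cell cannot be told apart.

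**Figure D2:**
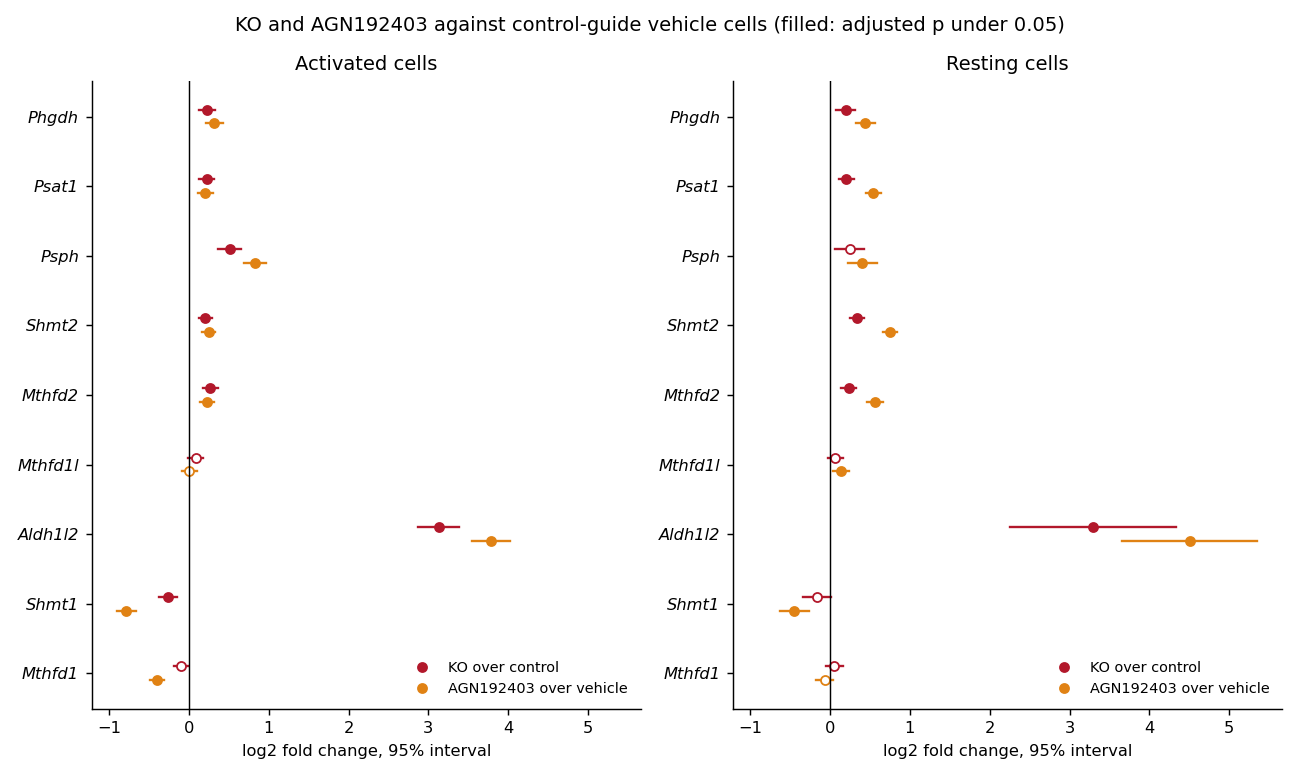
Log2 fold change of each mRNA, with its 95% interval, for KO over control and for AGN192403 over vehicle in activated (left) and resting (right) cells, with filled points where the adjusted p was under 0.05. Aldh1l2 lies apart at 3.13 and 3.78 in activated cells, 5 of the other serine and mitochondrial enzymes lie between 0.19 and 0.83, and Shmt1 lies below 0 in all 4 comparisons.

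In activated cells all 3 serine synthesis enzymes rose with both perturbations. Phgdh, which encodes the first and committed enzyme of the path, was at 196 and 191 CPM in activated KO cells and 196 and 217 CPM in activated AGN192403 cells, against 167 and 165 CPM in activated control cells. Neither perturbed group overlapped the control libraries. The rise was 17.0% with KO (log2 fold change 0.23 ± 0.05 SE, adjusted p = 0.00149) and 24.8% with AGN192403 (0.32 ± 0.05, adjusted p = 1.11e-05). At rest Phgdh was at 101 and 98.9 CPM in KO cells and 118 and 119.8 CPM with AGN192403, against 82.8 and 91.5 CPM in control cells. The resting rise with AGN192403 (35.9%, adjusted p = 1.6e-06) was called under every alternative tried, whereas that with KO (14.4%, adjusted p = 0.0372) was lost in 5 of them. Without resting control library 1 it had a log2 fold change of 0.13 and an adjusted p of 0.403, without resting KO library 1 an adjusted p of 0.188, without resting KO library 2 one of 0.0562, without the 3 libraries high in Kcnq1ot1 one of 0.201, and with DESeq2 one of 0.0862.

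Psat1 encodes the aminotransferase of the second step and had the second highest level per length. It was at 439.9 and 452 CPM in activated KO cells and 421 and 460.2 CPM in activated AGN192403 cells, against 381 and 384 CPM in activated control cells. The rise was 16.6% with KO (adjusted p = 0.000545) and 15.4% with AGN192403 (adjusted p = 0.000539), and no perturbed library fell within the control range. At rest Psat1 was at 242 and 232 CPM in KO cells and 293 and 307 CPM with AGN192403, against 203 and 209 CPM in control cells. Here the rise was 15.3% with KO (adjusted p = 0.00662) and 45.8% with AGN192403 (adjusted p = 2.02e-09). The resting KO call was lost without resting control library 1 (adjusted p = 0.102) and without resting KO library 1 (adjusted p = 0.0883).

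Psph, for the phosphatase that releases serine in the last step, was the least abundant of the 3 serine synthesis mRNAs and moved most of them in activated cells. It was at 84.9 and 75.0 CPM in activated KO cells and 94.1 and 107 CPM in activated AGN192403 cells, against 55.3 and 58.1 CPM in activated control cells. No library of either perturbed group fell within the control range. The rise was 42.4% with KO (log2 fold change 0.51 ± 0.07 SE, adjusted p = 5.46e-06) and 77.8% with AGN192403 (0.83 ± 0.07, adjusted p = 2.85e-10). At rest it was at 38.5 and 34.5 CPM in KO cells and 40.5 and 41.5 CPM with AGN192403, against 29.97 and 32.005 CPM in control cells. With AGN192403 the resting rise was 32.1% (adjusted p = 0.0012), while the KO difference of 18.8% did not pass (adjusted p = 0.0918), although it did in 4 of the 20 alternatives, each without 1 activated KO or AGN192403 library (adjusted p from 0.0173 to 0.041). Exons of Psph overlap those of Cct6a, which encodes a chaperonin subunit and was at 743 and 760.4 CPM in activated KO cells and 631 and 646 CPM in activated AGN192403 cells, against 753 and 771 CPM in activated control cells. Cct6a was thus not above control in the activated groups in which Psph rose. At rest it was at 261 and 263 CPM in KO cells and 290.4 and 295 CPM with AGN192403, against 235 and 247 CPM in control cells, and so stood above control where Psph did, and its part in the resting values of Psph was not tested.

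Of the mitochondrial folate enzymes, Shmt2, which makes the one-carbon unit, was at 471 and 469 CPM in activated KO cells and 486 and 485 CPM in activated AGN192403 cells, against 402 and 415 CPM in activated control cells. The 2 libraries of each perturbed group lay close together and above both controls. The rise was 15.2% with KO (adjusted p = 0.000487) and 18.9% with AGN192403 (adjusted p = 1.8e-05). At rest Shmt2 was at 222 and 221 CPM in KO cells and 298 and 291 CPM with AGN192403, against 169 and 182 CPM in control cells. The resting rises were 26.1% with KO (log2 fold change 0.34 ± 0.04 SE, adjusted p = 1.43e-05) and 67.7% with AGN192403 (0.75 ± 0.04, adjusted p = 1.49e-12). After Aldh1l2, this was the largest rise of any of the 9 with AGN192403 at rest.

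Mthfd2, for the dehydrogenase and cyclohydrolase that follows SHMT2, was at 329.7 and 335 CPM in activated KO cells and 309 and 337 CPM in activated AGN192403 cells, against 271 and 280.1 CPM in activated control cells. It rose by 20.6% with KO (adjusted p = 4.59e-05) and by 17.4% with AGN192403 (adjusted p = 0.000132). At rest it was at 179 and 178 CPM in KO cells and 220.1 and 228 CPM with AGN192403, against 152 and 152 CPM in control cells. The resting rises were 17.5% (adjusted p = 0.00234) and 47.6% (adjusted p = 1.16e-09). Mthfd2 and Psat1 thus both had their largest rise with AGN192403 at rest, as did Shmt2. The fitted rises of Phgdh, Mthfd1l and Aldh1l2 were also largest there. For those genes the test of the AGN192403 effect between activated and resting cells did not pass (adjusted p = 0.284, 0.17 and 0.475). The log2 fold changes of Mthfd2 and Psat1 in the 4 comparisons were within 0.05 of each other.

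Mthfd1l encodes the synthetase that releases formate, and it was the member that changed least in activated cells. It was at 214 and 226 CPM in activated KO cells and 202 and 214 CPM in activated AGN192403 cells, against 206 and 209 CPM in activated control cells. Its differences of 6.03% with KO (95% interval on the log2 scale -0.00845 to 0.177, adjusted p = 0.211) and 0.443% with AGN192403 (-0.0869 to 0.0997, adjusted p = 0.936) did not pass, and the control libraries lay within the AGN192403 range. At rest it was at 168 and 173 CPM in KO cells and 172 and 184 CPM with AGN192403, against 162 and 163 CPM in control cells. The KO difference of 4.70% at rest did not pass (adjusted p = 0.476). The AGN192403 rise of 10.1% did (adjusted p = 0.0323), but it was lost when resting control library 1, resting control library 2 or resting AGN192403 library 2 was left out (adjusted p = 0.124, 0.107 and 0.367), with median-ratio size factors (0.0559) and with DESeq2 (0.165).

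Aldh1l2, for the mitochondrial formyltetrahydrofolate dehydrogenase, showed by far the largest change of the 9. It was at 30.5 and 34.7 CPM in activated KO cells and 50.0 and 51.5 CPM in activated AGN192403 cells, against 3.67 and 3.69 CPM in activated control cells. These rest on 494 and 322 counts in KO libraries and 530 and 701 counts in AGN192403 libraries, against 44 and 44 counts in control libraries. Aldh1l2 was 8.74-fold higher with KO (log2 fold change 3.13 ± 0.13 SE, adjusted p = 1.33e-14) and 13.8-fold higher with AGN192403 (3.78 ± 0.12, adjusted p = 8.76e-18). Among the 13167 tested genes these were the rises ranked 13 for KO and 7 for AGN192403.

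In resting cells Aldh1l2 was close to the limit of detection. It had 28 and 17 counts in KO libraries and 42 and 55 counts in AGN192403 libraries, against 3 and 1 counts in control libraries, or 1.73 and 1.86 CPM and 4.44 and 3.93 CPM against 0.300 and 0.0757 CPM. As counts, the ratio to control was 10.3 for KO (95% interval 3.76 to 39.4) and 24.0 for AGN192403 (9.09 to 89.9), and these intervals cover counting error only. Both rises passed the test (adjusted p = 0.000106 for KO and 6.54e-09 for AGN192403), but the fitted log2 fold changes of 3.29 and 4.51 depend on the 4 control counts. D10Wsu102e, the gene on the other strand whose exons overlap those of Aldh1l2, was at 73.8 to 88.9 CPM in all 12 libraries, including those in which Aldh1l2 had 1 and 3 counts.

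Of the cytosolic enzymes, Shmt1 fell in 3 of the 4 comparisons with control and Mthfd1 in 1 of the 4. Shmt1, the cytosolic counterpart of Shmt2, was at 93.6 and 91.8 CPM in activated KO cells and 62.2 and 66.7 CPM in activated AGN192403 cells, against 112 and 111 CPM in activated control cells. The 3 groups did not overlap, with AGN192403 lowest and control highest. Shmt1 fell by 16.5% with KO (log2 fold change -0.26 ± 0.06 SE, adjusted p = 0.00152) and by 41.8% with AGN192403 (-0.78 ± 0.06, adjusted p = 1.21e-10). At rest it was at 32.8 and 29.6 CPM in KO cells and 27.7 and 24.7 CPM with AGN192403, against 32.1 and 38.0 CPM in control cells. At rest Shmt1 fell by 26.6% with AGN192403 (adjusted p = 0.000382), and the KO difference of -10.7% did not pass (adjusted p = 0.274), with 1 KO library inside the control range. The overlapping gene Smcr8 was at 101 to 123 CPM in all 12 libraries.

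Mthfd1, which carries 3 enzyme activities in the cytosol, was at 223 and 225 CPM in activated KO cells and 178 and 184 CPM in activated AGN192403 cells, against 238 and 242 CPM in activated control cells. It fell by 24.4% with AGN192403 (log2 fold change -0.40 ± 0.04 SE, adjusted p = 3.5e-08). The KO difference of -6.71% did not pass (95% interval on the log2 scale -0.187 to -0.0138, adjusted p = 0.0985), although it did when genes under 5 CPM were left out (adjusted p = 0.0308) and when only the compared libraries were fitted (0.047). At rest Mthfd1 was at 97.5 and 93.7 CPM in KO cells and 89.5 and 87.2 CPM with AGN192403, against 88.8 and 95.6 CPM in control cells. Neither resting difference passed (3.67%, adjusted p = 0.629 for KO, and -4.52%, adjusted p = 0.388 for AGN192403).

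Because Shmt2 and Mthfd2 rose and Shmt1 fell in activated cells, the ratio of mitochondrial to cytosolic mRNA per exon length was taken in each library. Shmt2 to Shmt1 was 6.29 and 6.39 in activated KO cells and 9.76 and 9.08 in activated AGN192403 cells, against 4.50 and 4.69 in activated control cells. At rest it was 8.44 and 9.32 in KO cells and 13.5 and 14.7 with AGN192403, against 6.57 and 5.98 in control cells. In both states the 3 groups were ordered in the same way without overlap. Mthfd2 to Mthfd1 was 1.89 and 1.89 in activated KO cells and 2.21 and 2.33 in activated AGN192403 cells, against 1.45 and 1.47 in activated control cells, and had the same order at rest (2.34 and 2.42 with KO and 3.13 and 3.33 with AGN192403, against 2.18 and 2.03 in control cells). For Mthfd1l to Mthfd1 the resting KO ratios of 1.72 and 1.85 overlapped the control ratios of 1.83 and 1.70. The ratios are given as a description, since 2 libraries a group allow no permutation test that could pass.

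**Figure D3:**
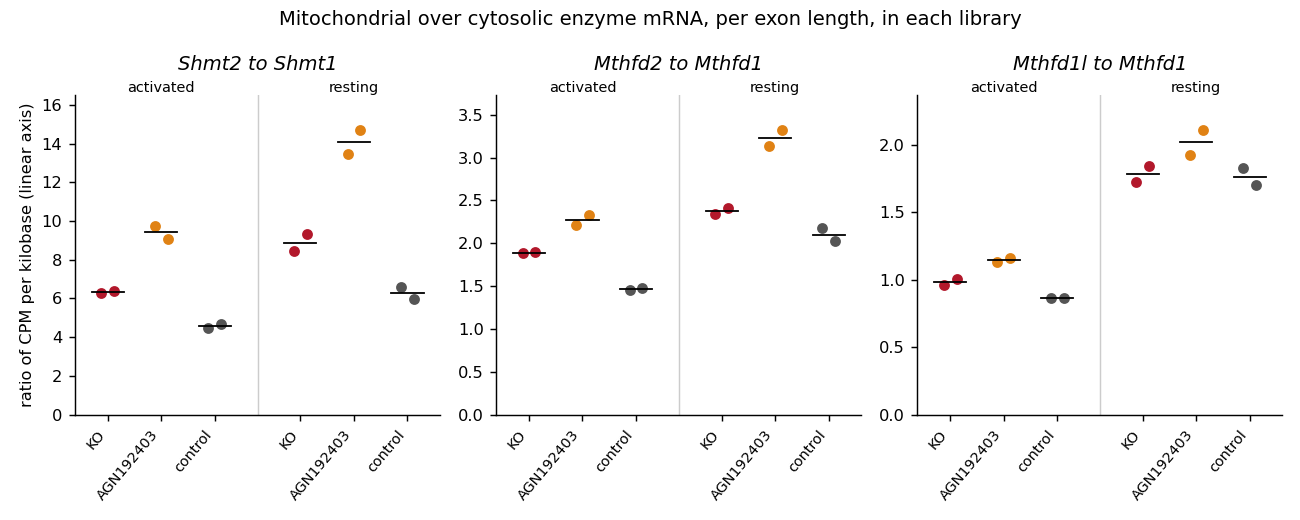
Ratio of mitochondrial to cytosolic enzyme mRNA, each as CPM per kilobase of exon (linear axis from 0), in each library, with bars for the mean of 2 and groups ordered KO, AGN192403 and control. Shmt2 to Shmt1 reached 13.5 and 14.7 in resting AGN192403 cells, against 6.57 and 5.98 in resting control cells, and was lower in activated than in resting cells in each of the 3 conditions.

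A direct comparison of the perturbations showed where they differed. In activated cells, 4 of the 9 were called between KO and AGN192403, where 20.3% of all tested genes were called (13% higher and 7.34% lower in KO). Psph (log2 fold change -0.32, adjusted p = 0.00055) and Aldh1l2 (-0.66, adjusted p = 5.83e-07) were lower in KO, and Shmt1 (0.52, adjusted p = 8.17e-07) and Mthfd1 (0.30, adjusted p = 1.05e-05) were higher. For Psat1, Shmt2 and Mthfd2 the activated difference did not pass, and the 95% intervals on the log2 scale were -0.0737 to 0.105, -0.127 to 0.0361 and -0.0484 to 0.127. Nor did it for Mthfd1l (-0.0148 to 0.171) or Phgdh (-0.193 to 0.00676, adjusted p = 0.194), but Phgdh passed without the 3 libraries high in Kcnq1ot1 (-0.16, adjusted p = 0.0079, making 5 of the 9), without activated AGN192403 library 1 (adjusted p = 0.0118) and with unscaled totals (0.0346). In resting cells 6 of the 9 were called, where 16.6% of all tested genes were called (8.83% higher and 7.78% lower in KO). Phgdh (-0.25), Psat1 (-0.34), Shmt2 (-0.41), Mthfd2 (-0.33) and Aldh1l2 (-1.22) were lower in KO (adjusted p from 8.94e-08 to 0.00225), and Shmt1 was higher (0.28, adjusted p = 0.0266). The resting call of Shmt1 was lost without resting AGN192403 library 2 (adjusted p = 0.292) and without resting KO library 1 (0.314), with no filter (0.0509) and with DESeq2 (0.0512), and that of Phgdh without resting AGN192403 library 2 (0.0818) and without resting KO library 2 (0.0587). The resting differences of Psph (95% interval -0.326 to 0.0186), Mthfd1l (-0.169 to 0.0243) and Mthfd1 (0.0138 to 0.224, adjusted p = 0.12) did not pass, and that of Mthfd1 did without activated AGN192403 library 1 (adjusted p = 0.0362). KO acted by loss of 1 gene over days and AGN192403 by 24 h of exposure, so dose and time are not matched.

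Activation itself raised all 9 enzymes in each condition. In KO cells 9 of the 9 rose, where 73.7% of all tested genes were called (37.2% higher and 36.5% lower). In AGN192403 cells 9 of the 9 rose, where 70% were called (33.9% higher and 36.1% lower), and in control cells 9 of the 9 rose, where 73.8% were called (36.4% higher and 37.4% lower). In control cells the rise was largest for Aldh1l2, which had 88 counts in activated and 4 in resting libraries, a ratio of 21.4 (95% interval 8.05 to 80.1 from counting). Markers of other cells also moved with activation: 4 NK markers, 1 of them above the filter, summed to group means of 82.2 to 113 CPM in activated and 133 to 168 CPM in resting groups, and 5 stromal markers to 24.2 to 29.5 CPM and 88.1 to 103 CPM, and their part in the result was not tested. The rise of Aldh1l2 was followed by that of Shmt1 at 214% (log2 fold change 1.65 ± 0.07 SE, adjusted p = 3.02e-17), Mthfd1 at 160% (1.38 ± 0.05, adjusted p = 6.08e-19) and Shmt2 at 133% (1.22 ± 0.04, adjusted p = 1.26e-18). Phgdh (89.4%), Psat1 (85.4%), Psph (82.4%) and Mthfd2 (81.3%) rose by similar amounts, and Mthfd1l by 27.6% (adjusted p = 2.29e-07). The fitted rise of Shmt1 was thus above that of Shmt2, and that of Mthfd1 above that of Mthfd2 and Mthfd1l, a difference between genes that was not tested, and the Shmt2 to Shmt1 ratio was lower in activated than in resting cells.

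**Figure D4:**
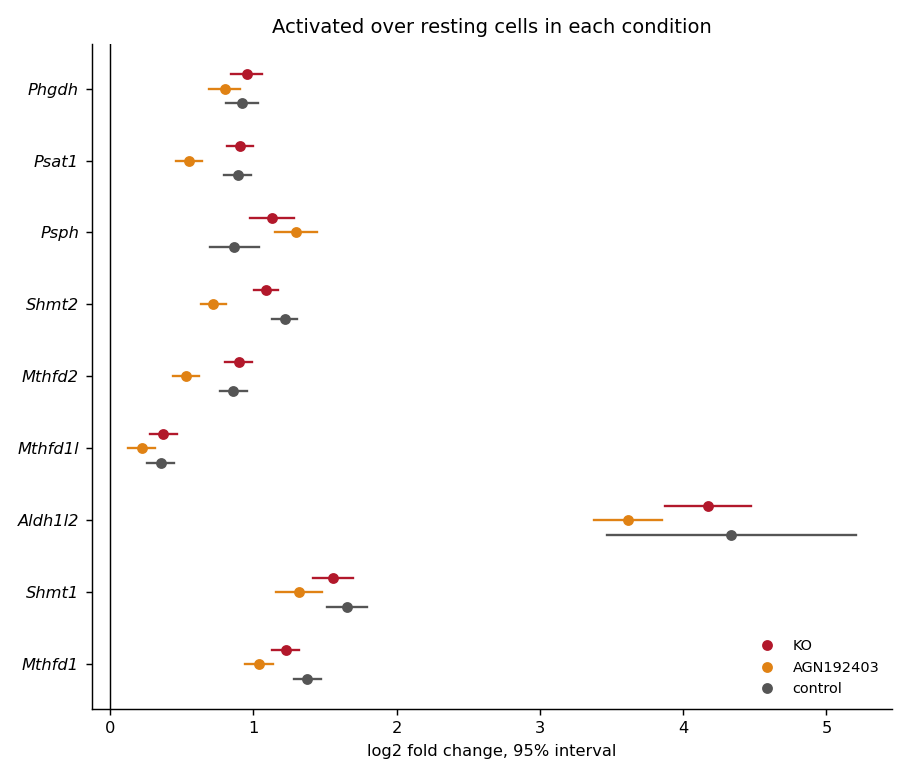
Log2 fold change of activated over resting cells, with its 95% interval, for each mRNA in KO, AGN192403 and control cells. All 27 values lie above 0. By the test of the difference, Shmt2, Psat1, Mthfd2, Shmt1 and Mthfd1 have smaller values with AGN192403 than in control cells. Psph has a larger one. The values of Phgdh, Mthfd1l and Aldh1l2 are also smaller with AGN192403, but those differences did not pass.

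Of the 9 differences in activation response between KO and control cells, 0 passed in edgeR, 3 had an unadjusted p under 0.05 (Psph 0.26, Shmt2 -0.13 and Mthfd1 -0.15 on the log2 scale), and DESeq2 also called 0, where 4.96% of all tested genes were called (3.07% higher and 1.89% lower). The 95% intervals on the log2 scale lay between -0.303 and 0.493 for 8 of the genes, and the interval for Aldh1l2 was wider, at -1.16 to 0.838. With AGN192403 the response was smaller than with vehicle for 5 of the 9 and larger for 1, where 19.7% of all tested genes were called (8.62% higher and 11.1% lower). Shmt2 rose by 64.9% on activation with AGN192403, against 133% with vehicle (difference -0.50 ± 0.06 SE on the log2 scale, adjusted p = 1.11e-06). Psat1 rose by 46.8% with AGN192403, against 85.4% with vehicle (-0.34 ± 0.06, adjusted p = 0.000432), and Mthfd2 by 44.2%, against 81.3% (-0.33 ± 0.06, adjusted p = 0.000502). For these 3 genes the AGN192403 rise was larger at rest than in activated cells. Mthfd1 rose by 106% with AGN192403, against 160% with vehicle (-0.34 ± 0.07, adjusted p = 0.000703). Psph rose by 145% with AGN192403, against 82.4% with vehicle (0.43 ± 0.11, adjusted p = 0.00691), a call that was lost without resting control library 2 (adjusted p = 0.0621). The Shmt1 difference (-0.33 ± 0.11, adjusted p = 0.0271) was lost in 10 of the 20 alternatives, with DESeq2 (adjusted p = 0.0906), with the compared libraries alone (0.0559), without the 3 libraries high in Kcnq1ot1 (-0.18, adjusted p = 0.353), and without any 1 of resting control library 1 (0.168), resting AGN192403 library 1 (0.211), activated control library 1 (0.0528) or 2 (0.0655), activated AGN192403 library 1 (0.0844), and activated KO library 1 (0.0524) or 2 (0.0521). The differences of Phgdh (-0.12, adjusted p = 0.284), Mthfd1l (-0.13, adjusted p = 0.17) and Aldh1l2 (-0.72, 95% interval -1.93 to 0.484) did not pass, and that of Phgdh did without activated AGN192403 library 2 (-0.20, adjusted p = 0.0425).

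Other genes of the pathway were counted in lists of known function, with the calls of edgeR. Of all tested genes, 19.6% were called with KO and 34.7% with AGN192403 in activated cells, and 7.44% and 25.4% at rest. DESeq2 called fewer of all tested genes than edgeR. With KO it called 1430 in activated and 380 in resting cells, against 2583 and 979 by edgeR. With AGN192403 it called 3031 and 1935, against 4570 and 3341. Among 10 tested folate and serine transport genes, 4 rose and 0 fell in activated KO cells (0 lower at an unadjusted p under 0.05 and 0 by DESeq2), and 4 rose and 3 fell with AGN192403 in activated cells. DESeq2 called 3 higher with KO, and 4 higher and 2 lower with AGN192403. The largest rise in both, and in both resting comparisons, was that of Slc6a9, a glycine transporter at the cell surface. Slc6a9 averaged 37.2 ± 1.66 CPM in activated KO cells and 53.7 ± 1.48 CPM in activated AGN192403 cells, against 16.6 ± 0.379 CPM in activated control cells (SD, n = 2 each), and its log2 fold changes were 1.17 (adjusted p = 1.72e-10) and 1.70 (adjusted p = 7.95e-15). At rest it averaged 7.95 ± 0.281 CPM in KO cells and 17.2 ± 1.29 CPM with AGN192403, against 2.82 ± 0.179 CPM in control cells (log2 fold changes 1.49 and 2.605, adjusted p = 2.35e-06 and 7.35e-13). The largest fall was that of Slc25a32, the mitochondrial folate carrier, with AGN192403 in activated cells (-0.27, adjusted p = 0.00236).

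Among 12 tested folate enzymes outside the list of 9, 0 rose and 2 fell in activated KO cells, where 19.6% of all tested genes were called. Of the 12, 0 were higher at an unadjusted p under 0.05 and 0 by DESeq2. In resting KO cells 7.44% of all tested genes were called. Of the 12, 0 were called by edgeR and 0 by DESeq2, and 1 had an unadjusted p under 0.05. With AGN192403, 1 rose and 6 fell in activated cells, where 34.7% of all tested genes were called. At rest 3 rose and 2 fell, where 25.4% were called. DESeq2, which also called fewer of all tested genes, called fewer of the 12. It called 1 lower in activated KO cells. With AGN192403 it called 1 higher and 4 lower in activated cells, and 1 higher and 1 lower at rest. Tyms, which uses the one-carbon unit to make thymidylate, had the largest called fall in activated KO cells, at 43.0 ± 1.64 CPM in activated KO cells and 30.3 ± 1.69 CPM in activated AGN192403 cells, against 59.1 ± 1.60 CPM in activated control cells (SD, n = 2 each). Its log2 fold change was -0.47 (adjusted p = 2.68e-06) with KO and -0.96 (adjusted p = 9.13e-12) with AGN192403, and it also had the largest fall with AGN192403 at rest (-0.47, adjusted p = 1.93e-06). The largest fitted fall with AGN192403 in activated cells was that of Ftcd, which is given as counts only, with 3 counts in AGN192403 libraries against 13 in control libraries. The largest rise of the list in resting AGN192403 cells was that of Mtfmt (0.30, adjusted p = 0.0132). The median over the 12 was -0.02 for KO and -0.25 for AGN192403 in activated cells, against 0.02 and -0.01 over all tested genes.

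The glycine cleavage system is another source of mitochondrial one-carbon units. Of its 4 genes, 2 rose in activated KO cells, where 19.6% of all tested genes were called. In activated cells 1 fell with AGN192403, where 34.7% were called. At rest edgeR and DESeq2 each called 0 of the 4 in either comparison. There edgeR called 7.44% of all tested genes with KO and 25.4% with AGN192403. An unadjusted p was under 0.05 at rest for 2 of the 4 with KO and 0 with AGN192403. DESeq2 called 0 of the 4 higher in activated KO cells. Gldc, its decarboxylase, was at 4.78 ± 0.0624 CPM in activated KO cells, against 2.97 ± 0.783 CPM in activated control cells (log2 fold change 0.69, adjusted p = 0.0432), and Gcsh fell with AGN192403 (-0.31, adjusted p = 0.000303). In activated cells 19.6% of all tested genes were called with KO and 34.7% with AGN192403. Among 10 tested genes that use serine or homocysteine, 3 rose and 0 fell in activated KO cells (1 lower at an unadjusted p under 0.05 and 0 by DESeq2), and 4 rose and 2 fell with AGN192403. DESeq2 called 1 higher with KO, and 1 higher and 1 lower with AGN192403. Cth, which makes cysteine from cystathionine, had the largest called rise in both, at 72.0 ± 6.21 CPM in activated KO cells and 87.0 ± 4.44 CPM in activated AGN192403 cells, against 40.5 ± 0.861 CPM in activated control cells (log2 fold changes 0.84 and 1.11, adjusted p = 1.31e-09 and 9.08e-13). Ahcy, which hydrolyzes S-adenosylhomocysteine, had the largest fall with AGN192403 (-0.48, adjusted p = 1.79e-05). At rest 1 of the 10 rose with KO (Mat2a, 0.16, adjusted p = 0.0247), where DESeq2 called 0, and 0 were called with AGN192403 by edgeR or DESeq2, with 2 at an unadjusted p under 0.05. Of all tested genes, edgeR called 7.44% with KO and 25.4% with AGN192403 at rest.

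Of 10 genes for regulators and known stress-response targets, 7 rose and 1 fell in activated cells both with KO and with AGN192403, where 19.6% and 34.7% of all tested genes were called. At rest 5 rose and 0 fell with KO (0 lower at an unadjusted p under 0.05 and 0 by DESeq2), and 8 rose and 2 fell with AGN192403, where 7.44% and 25.4% were called. Atf5, a transcription factor of the integrated stress response, had the largest rise in all 4 comparisons, at 33.6 ± 0.612 CPM in activated KO cells and 56.3 ± 4.42 CPM in activated AGN192403 cells, against 15.0 ± 0.903 CPM in activated control cells (SD, n = 2 each). Its log2 fold changes were 1.17 and 1.92 in activated cells and 0.48 and 1.61 at rest. Atf4, chosen after its values were seen, had smaller rises at the mRNA level of 0.24 and 0.36 in activated cells and 0.15 and 0.71 at rest (adjusted p from 3.2e-12 to 0.03). Ddit4 had the largest fall in activated KO cells (-0.24) and with AGN192403 in activated (-0.45) and resting (-0.23) cells.

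Genes whose pattern over the 12 libraries was most like that of 8 of the members were ranked by Pearson's r of log2 CPM, as a description. The 12 libraries fall into activated and resting sets, so most of each r reflects that split. Psat1 and Mthfd2 were each other's nearest gene of all 13167 (r = 0.998), and Tars, for threonyl-tRNA synthetase, was among the 3 nearest genes of Psat1, Mthfd2 and Shmt2 (r from 0.995 to 0.998). Aldh1l2 was nearest to Sept2, Nucb2 and Slc6a9 (r = 0.992, 0.987 and 0.980). Phgdh was nearest to Txndc5, Gmppb and Srprb (r from 0.996 to 0.997), and Mthfd1l to Uqcrc2, Anapc4 and Mrpl35 (0.989 to 0.994). The other genes nearest to Shmt2 and Mthfd2 were Nus1 and Psat1 for Shmt2 and Gorasp2 for Mthfd2, and Bud31 was the third for Psat1. Shmt1 was nearest to Slc8a2, Ipo11 and Hdgf (0.994), and Mthfd1 to Pa2g4, Atp5b and Cct8 (0.998), so that no other of the 9 genes was among the 3 nearest genes of either cytosolic enzyme.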

How the data were processed

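RNA was sequenced in 12 libraries, grouped per the labels. The values are whole-number read counts for each gene, as deposited. The authors made them from stranded, single-end libraries of polyadenylated RNA, aligned with STAR and counted with HTSeq on GRCm38 (mm10). The submitters' processing notes give STAR 2.6.0c, whereas another version stands in the study's methods. The strand setting of HTSeq is not given in the sources used here. GENCODE M21 gave a symbol to 46091 of 46603 identifiers.

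The filterByExpr function of edgeR 4.0.16 (R 4.3.3) left 13167 genes with 99.9% of counts. After TMM scaling (factors 0.976 to 1.02), a quasi-likelihood model with 1 mean for each group was fitted over all 12 libraries. Calls were made at 0.05 after Benjamini-Hochberg adjustment over all tested genes. CPM are counts scaled per library by TMM with the cpm function, and exon lengths are unions of annotated exons. Differences run KO minus control, AGN192403 minus vehicle, KO minus AGN192403, or activated minus resting. It is not stated whether replicates are separate cultures or mice, so p-values measure the spread between libraries, which may be technical. Replicates differed by more than counting noise in every group.

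The members, lists and contrasts were chosen with earlier results of these data known. The rule for named genes took all 9 members and, from each other list, the called gene with the largest rise and the largest fall, and for the other lists only the comparisons with control are printed. Nearest genes were ranked by Pearson's r of log2 CPM with a prior count of 2. The alternatives were a fit with no filter, one with at least 5 CPM, size factors by median ratio, unscaled totals, the replicate number as a block, each library left out in turn, the compared libraries alone, and DESeq2 1.42.0. Leaving out 3 libraries together was added after the data were seen. The fit was tested on simulated data. Some genes of the lists and of the nearest-gene ranking are not reported here.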

Additional observations from a re-analysis of the deposited data

Results flagged for a closer look

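The change on activation differed between AGN192403 and vehicle for 6 of the 9 genes by a test of the difference itself. On the log2 scale the difference, AGN192403 minus vehicle, was -0.50 for Shmt2, -0.34 for Psat1, -0.34 for Mthfd1, -0.33 for Mthfd2, -0.33 for Shmt1 and 0.43 for Psph. Activation raised each of these genes in both conditions, so the differences are in size and not in direction. Psph was the 1 gene of the 6 with a larger rise under AGN192403, with 94.1 and 107 CPM in activated and 40.5 and 41.5 CPM in resting AGN192403 cells, against 55.3 and 58.1 CPM in activated and 29.97 and 32.005 CPM in resting control cells. The Shmt1 call was lost in 10 of the 20 alternatives, and DESeq2 and the fit without the 3 libraries high in Kcnq1ot1 each called 5 of the 9. The same test called 19.7% of all tested genes.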

How the results depend on the processing

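The number of the 9 genes called stayed within 1.5 times its value in all 11 comparisons and under all 20 alternatives, except for KO against control at rest, where it ranged from 3 to 6 when libraries were left out in turn (5 with all libraries). Of the single log2 fold changes, 1890 kept their direction and call, 29 lost the call, 11 gained it and 50 changed sign. Those 50 were all of differences that were not called with all libraries. For Mthfd1l with AGN192403 in activated cells the value was -0.0035 with the 5 CPM filter. For the activation response of KO minus control it was -0.0058 for Psat1 and -0.0047 for Mthfd1l with median-ratio size factors, -0.0050 and -0.0034 with library totals, and -0.0057 and -0.0044 with DESeq2. For KO against AGN192403 in activated cells it was -0.033 for Psat1 and -0.0091 for Mthfd2 with library totals, and -0.012 for Psat1 with the compared libraries alone. Without the 3 libraries high in Kcnq1ot1, an alternative chosen after seeing the data, it was 0.014 for Shmt1 (KO minus control response), 0.016 for Phgdh (AGN192403 minus vehicle response), and -0.042 for Psat1 and -0.017 for Mthfd2 (KO against AGN192403, activated). The cause was not tested.

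When libraries were left out in turn, the KO minus control activation response ranged from -0.043 to 0.10 for Phgdh, -0.048 to 0.043 for Psat1, -0.0074 to 0.042 for Mthfd2, -0.052 to 0.025 for Mthfd1l, -1.25 to 0.61 for Aldh1l2 and -0.23 to 0.0099 for Shmt1. The AGN192403 minus vehicle response of Aldh1l2 ranged from -1.81 to 0.042. KO against AGN192403 ranged from -0.064 to 0.086 for Psat1 and -0.039 to 0.11 for Mthfd2 in activated cells, and from -0.085 to 0.0074 for Mthfd1l at rest, and AGN192403 against vehicle in activated cells from -0.037 to 0.060 for Mthfd1l. Where a group is left with 1 library, that library is assumed to vary like the others.

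The replicate numbers were checked for pairing by the correlation of the differences between replicates over 15 pairs of groups. It ran from -0.0051 to 0.24, with 3 of 15 above 0.1, so the numbers were not taken to pair the libraries. With the replicate block, 7 of the 9 were called in activated and 5 in resting KO cells, 8 and 8 with AGN192403, 9 on activation in each condition, 0 and 6 for the differences in response, and 4 and 6 between KO and AGN192403. No call of a member changed. Depth limits Aldh1l2 at rest, whose control libraries held 3 and 1 counts.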
